A study of Mus musculus with 8 samples.

Results

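The comparison set untreated ERF knockout mouse embryonic stem (ES) cells against untreated ERF wild type cells of the same background, a state in which, per the design text, ERK signalling is active. It comprised the 4 untreated arrays of a series of 8: wild type pools A1 and B1 and knockout pools A2 and B2, replicates 1 and 2 of each genotype, chosen by their titles. The alleles shared by all cells included H-Ras-/-; N-Ras-/-; RERT ert/ert, where RERT is a tamoxifen-inducible Cre expressed from the locus of the large RNA polymerase II subunit. Per the design text, 4-hydroxytamoxifen (OHT) leaves the cells without MAPK signalling. The wild type pools differed from the knockout pools by the ERF-WT or ERF-KO genotype, and untreated cells had received no agent. The other 4 arrays held the same 4 pools after at least 2 days of OHT and serve here as a second view of each pool, not as further samples of a genotype. These OHT arrays also enter the variance estimate of the test. Each pool was a mix of 2 clones grown on gelatin with serum and LIF, and the design text calls the pools of a genotype biological replicates. The labels do not say how the knockout was made.

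ERF belongs to the ETS transcription factors and represses its targets. Active ERK, the last kinase of the RAS-RAF-MEK-ERK cascade, phosphorylates ERF and keeps it out of the nucleus, and ERF returns to the nucleus and binds DNA when the cascade is silent. In ES cells ERK signalling, driven largely by FGF4, promotes exit from naive pluripotency. The untreated comparison asks what the loss of ERF does where ERK signalling is active per the design text. Where ERF lay in these cells was not measured.

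The 4 arrays had between 54.0% and 62.3% of spots well above background and 0 saturated spots. Every level below is the log2 spot intensity minus the 75th percentile of its array, so that 0 is the signal of a probe at that percentile, and values in one list are ordered A1, B1 for wild type and then A2, B2 for labelled knockout. Pool B1 lay on slide 2 and the other 3 untreated arrays on slide 1, and each slide was 1 scan. All 12 ES cell markers were well above background on all 4 arrays, with medians of 5.48, 5.35, 4.24 and 5.50. Of 12 fibroblast markers, which feeder cells would carry, 10 were above background on all 4 arrays and 1 on none, and their summed signal ran from 4.66 to 5.41 on the log2 scale in wild type and from 4.93 to 5.33 in labelled knockout. Small dim patches on the glass covered between 0.0185% and 1.68% of the spots of an array and are named where they touch a gene. Leaving out these patches, 13391 genes were well above background on all 4 arrays, and these are called measured genes below.

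Erf itself gave 5.12 in pool A1, 5.43 in pool B1, 3.45 in pool A2 and 5.65 in pool B2. The signal was therefore low in 1 labelled knockout pool and highest of all 4 arrays in the other, so the 2 groups overlapped. With OHT the pools read 4.98, 4.93, 3.92 and 5.31, with A2 again lowest and B2 highest. The difference of group means was -0.73 (SE 0.78, n = 2 against 2, limma adjusted p = 1), and it was 0.37 without pool A2 and -1.82 without pool B2. The Erf spot of pool A1 lay in a dim patch, and without it the difference was -0.88. Erf is represented by 1 probe, and the sources used here do not place it relative to the deleted part, so it checks neither label. For this reason the pools are called labelled knockout.

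The groups overlapped for Hras and Nras by the brightest probe of each. Hras read 3.21, 3.13, 2.86 and 3.15, and Nras read 0.87, 1.58, 1.56 and 1.71. Both genes are deleted in all pools, and these probes still gave signal well above background on every untreated array. A second Hras probe read -4.27, -4.47, -5.19 and -5.23 and was above background on 0 of the 4 untreated arrays. The other Nras probes were above background on all 4. The position of the probes relative to the deletions is likewise not given.

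**Figure D1:**
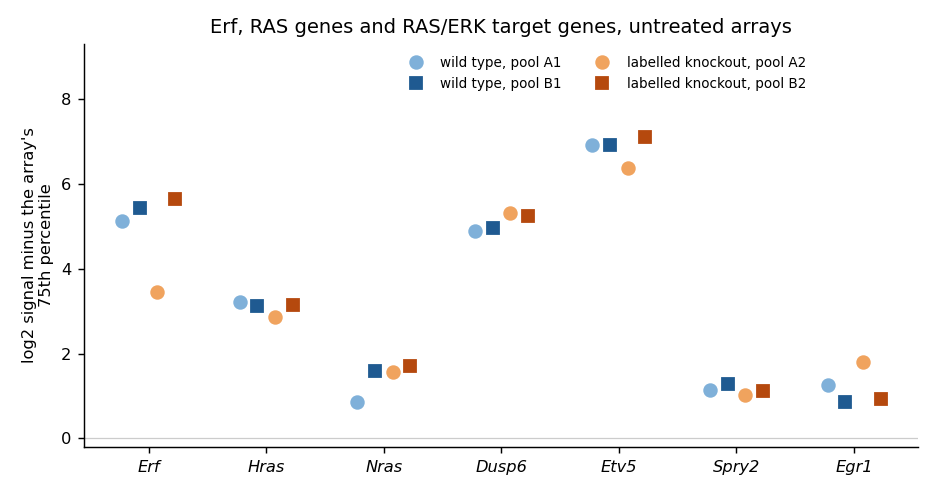
Level of Erf, of Hras and Nras and of 4 RAS/ERK target genes on the 4 untreated arrays; the vertical axis is log2 signal minus the array's 75th percentile, and each point is 1 array. Erf is low in pool A2, at 3.45, and between 5.12 and 5.65 in the other pools, while both labelled knockout points of Dusp6 lie above both wild type points.

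Across 15182 genes tested, no gene passed the test of labelled knockout against wild type. In limma 0 genes were higher (0%) and 0 lower (0%) at an adjusted p under 0.05, where the smallest adjusted p was 1. Leaving out pool B1 gave 21 higher genes and leaving out pool A2 gave 6 lower ones, all of them in a dim patch of the array left alone in its group, and leaving out pool B2 gave 2 lower ones, 1 of them in such a patch. At an unadjusted p under 0.05, 38 genes were higher (0.25%) and 168 lower (1.11%). Both labelled knockout arrays lay above both wild type arrays for 1395 genes (9.19%) and below both for 1751 (11.5%), and the median difference over all genes was -0.02. With 2 arrays against 2 these non-overlapping genes are a description, and the values of single genes below are given for their size and for their repeat in the OHT arrays of the same pools.

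Arrays resembled each other more by pool letter than by genotype. Over all genes tested, the correlation across genes of B1 with B2 was 0.989 and of A1 with A2 was 0.976, against 0.974 for the 2 wild type pools and 0.967 for the 2 labelled knockout pools. Genes are not independent replicates, and these values describe the arrays alone. Among the measured genes, 699 (5.22%) differed at least 2-fold between A2 and A1 and 194 (1.45%) between B2 and B1. Between the 2 wild type pools the number was 703 (5.25%), and between the 2 labelled knockout pools it was 1675 (12.5%). The spread of genes between pools of 1 genotype, an SD of 0.54 for A1 minus B1 and 0.72 for A2 minus B2 on the log2 scale, was thus larger than that between genotypes within a letter, 0.49 for A and 0.31 for B.

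The differences within the letters did not run together over the genes as a whole. A2 minus A1 and B2 minus B1, which share no array, correlated at r = 0.000165 (Spearman's rho = -0.0102) across the 13391 measured genes. At least 2-fold the same way in both pairs were 11 genes, and 7 went opposite ways. The 11 were chosen after their values were seen. Ssc5d, which encodes a secreted scavenger receptor protein, was the one higher gene. The 10 lower genes were 4930520O04Rik, Ffar2, Gas2l2, Gm11757, Hkdc1, Mypn, Pabpc6, Pramel6, Srgn and Zic2.

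**Figure D2:**
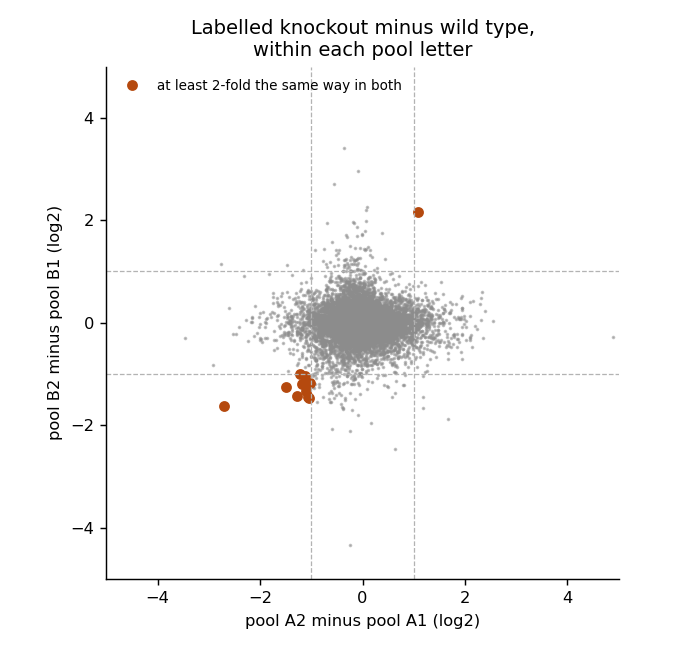
Log2 difference of pool A2 from pool A1 (horizontal) and of pool B2 from pool B1 (vertical), 1 point per measured gene; dashed lines mark 2-fold and larger points the 11 genes beyond them the same way in both pairs. The cloud has no slope, with r = 0.000165, and 1 gene lies outside the axes, which end at 5.

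Srgn, Hkdc1 and Pramel6 were those of the 11 whose groups were apart the same way in the OHT arrays. Srgn encodes serglycin, a proteoglycan of secretory granules. It read -0.36 and 0.76 in wild type and -1.64 and -0.66 in labelled knockout, a difference of -1.35 (SE 0.62, limma adjusted p = 1). With OHT it read -0.31 and 0.72 in wild type and -1.81 and -0.83 in labelled knockout. Each pool thus repeated its own level, and each labelled knockout pool lay below both wild type pools in both states. Hkdc1, a hexokinase family gene, read -1.50 and -0.78 against -3.0 and -2.03, a difference of -1.37. With OHT it read -1.22 and 0.17 against -2.37 and -1.48. With the slide as a block in the fit, the untreated differences were -0.81 for Srgn and -0.85 for Hkdc1. Both genes lie on chromosome 10, and in RefSeq order the protein-coding genes Supv3l1 and Vps26a stand between them. Supv3l1, a mitochondrial RNA helicase gene, read 2.86, 2.96, 2.34 and 3.07, and Vps26a, a retromer subunit gene, read 3.50, 3.39, 3.21 and 3.44, so neither separated the groups. Hk1, the hexokinase gene on the far side of Hkdc1, read 2.34, 2.86, 2.33 and 2.97, overlapping as well.

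Mypn, Ffar2 and Zic2 were apart in the untreated arrays and overlapped with OHT. Mypn, which encodes a sarcomere protein, read -2.92, -2.97, -4.11 and -4.17 untreated and -3.68, -3.24, -4.15 and -2.72 with OHT. Ffar2, a receptor for short-chain fatty acids, read -1.81, -1.99, -2.88 and -3.43, and with OHT -2.96, -2.13, -3.66 and -2.04. Under normexp, another way to correct for background, the Mypn and Ffar2 differences of -1.20 and -1.26 became -0.63 and -0.68. Zic2, a zinc finger factor of the primed epiblast, read 1.13, -1.38, -1.57 and -3.0, so its wild type pools lay far apart, and with OHT -2.09, -0.94, -2.53 and -1.62.

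Pools of the same letter also shared shifts that covered whole chromosomes. The 651 genes of chromosome 6 had a median of -0.51 for A1 minus B1 and -0.54 for A2 minus B2, and with OHT the medians were -0.54 and -0.47. The 739 genes of chromosome 8 had medians of -0.32 for A1 minus B1 and -0.54 for A2 minus B2. On the other 18 chromosomes these medians lay between -0.13 and 0.02 and between -0.15 and 0.04. Within a letter, chromosome 6 had medians of -0.04 for A2 minus A1 and -0.01 for B2 minus B1, while chromosome 8 had -0.21 and 0.01. The median difference between genotypes was -0.10 on chromosome 8 and between -0.05 and 0.01 on the other 18. The DNA content of the pools was not measured, and its part in these medians was not tested.

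**Figure D3:**
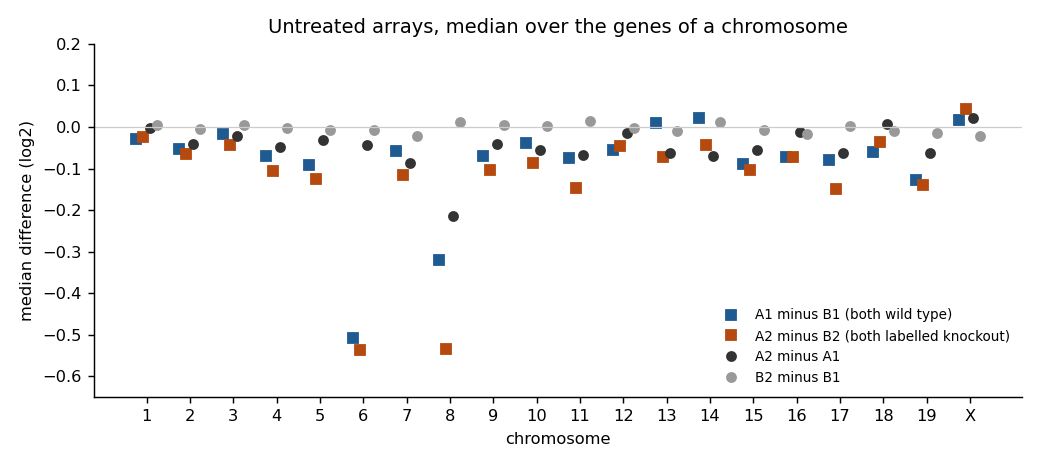
Median log2 difference over the genes of each chromosome between pairs of untreated arrays. Chromosome 6 stands at -0.51 and -0.54 between the A and B pools of each genotype, chromosome 8 at -0.32 and -0.54, and the differences within a letter are near 0 except for A2 minus A1 on chromosome 8, at -0.21.

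The 2 Y-linked genes tested were lower in both A pools than in both B pools, but the A pools were not alike. Ddx3y, an RNA helicase gene of the Y chromosome, read -6.69 in A1, 0.71 in B1, -1.91 in A2 and 1.23 in B2. Eif2s3y, a translation factor gene of the Y chromosome, read -6.76, 2.88, 0.76 and 3.22. Both were lowest in pool A1, between A1 and the B pools in A2, and highest in the B pools.

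Among measured genes, both labelled knockout arrays lay above both wild type arrays for 1249 (9.33%) and below both for 1316 (9.83%). Of the 1249, 485 (38.8%) were separated the same way in the OHT arrays and 34 the opposite way, and of the 1316, 302 (22.9%) the same way and 131 the opposite way. Over all measured genes, 15.1% were separated higher and 8.37% lower with OHT. Since the same pools were sampled, a repeat with OHT speaks for the level of a pool and adds no sample of a genotype. By at least 1 log2 unit, 1 measured gene was above (Ssc5d, 0.00747%) and 2 were below (Mypn and 4930520O04Rik, 0.0149%).

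In each direction the 12 measured genes of smallest p, a choice made after the values were seen, are described next, and for all 24 the limma adjusted p was 1. Dhx57, which encodes a DEAH-box RNA helicase, had the smallest SE of them. It read 0.63 and 0.50 in wild type and 1.01 and 1.03 in labelled knockout, a difference of 0.46 (SE 0.16). With OHT it read 0.60 and 0.61 against 1.15 and 1.23, so the 4 labelled knockout arrays lay above the 4 wild type arrays. Zfp94, a zinc finger gene, read -1.16 and -1.20 in wild type and -1.86 and -1.87 in labelled knockout, a difference of -0.69 (SE 0.20). Its OHT values were -1.57 and -2.01 against -2.06 and -1.92, which overlapped.

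The promoters of these genes are shown because ETS proteins such as ERF bind DNA at a GGAA core, commonly within CCGGAA. The 250 bases before the annotated start are from RefSeq (GRCm38.p6), and capitals mark each GGAA or its reverse complement TTCC. That core stands in 93.5% of all 32851 promoters of this length, so its presence separates nothing, and CCGGAA on either strand stands in 12.03% of them. The Dhx57 promoter (chr17:80290477-80290726, minus strand) has 4 such cores and no CCGGAA, and the Zfp94 promoter (chr7:24316667-24316916, minus strand) has 5, of which 1 is part of a CCGGAA.
Dhx57: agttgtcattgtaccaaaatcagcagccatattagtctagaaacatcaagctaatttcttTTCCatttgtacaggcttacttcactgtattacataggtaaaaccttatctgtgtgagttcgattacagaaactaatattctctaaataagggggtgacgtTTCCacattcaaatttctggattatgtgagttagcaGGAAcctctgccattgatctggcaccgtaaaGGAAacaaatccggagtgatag
Zfp94: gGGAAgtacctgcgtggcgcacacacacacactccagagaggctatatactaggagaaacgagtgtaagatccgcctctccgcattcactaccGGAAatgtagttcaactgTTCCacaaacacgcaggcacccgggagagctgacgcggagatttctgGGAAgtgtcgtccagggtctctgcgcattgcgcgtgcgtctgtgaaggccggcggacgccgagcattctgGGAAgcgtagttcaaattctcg

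Promoters holding CCGGAA were 25.9% of the genes with both labelled knockout arrays higher (262 of 1012 with a promoter sequence) and 19.4% of those with both lower (206 of 1062). Over all measured genes with a sequence it was 23.5% (2511 of 10666). Of the 24 genes, 15 had a promoter sequence, and 4 of these held CCGGAA: 4930402H24Rik, 4930520O04Rik, Lrrc10 and Zfp94. All 15 held GGAA. A match is a string of letters and not a bound site.

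Rarb, the retinoic acid receptor gene, was lower in both labelled knockout pools in both states. It read -3.08 and -3.78 in wild type and -4.36 and -4.60 in labelled knockout, a difference of -1.05 (SE 0.30). With OHT it read -2.50 and -2.81 against -3.67 and -3.99. Wild type and labelled knockout arrays did not overlap within either state. Rarb is a textbook target of retinoic acid through a repeat in its own promoter (chr14:16575477-16575726, minus strand), shown in capitals because it is the best-known control element of a gene described here. The letters GGTTCA and AGTTCA with 5 bases between them, searched on both strands, stand in 2 of the 32851 promoters (0.0061%), Rarb being 1.
Rarb: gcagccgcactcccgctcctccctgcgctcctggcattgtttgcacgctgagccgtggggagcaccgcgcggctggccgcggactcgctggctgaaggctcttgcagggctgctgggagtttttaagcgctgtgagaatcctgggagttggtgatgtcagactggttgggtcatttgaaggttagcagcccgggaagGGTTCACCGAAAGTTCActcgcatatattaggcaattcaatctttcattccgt

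Slc30a2, Slco4a1 and Abcc3 encode membrane transporters. Slc30a2, which carries zinc, read -1.11 and -0.51 in wild type and -0.26 and -0.05 in labelled knockout, and with OHT -1.19 and -1.01 against 0.02 and -0.17. Slco4a1, an organic anion transporter, read 1.72 and 1.82 against 2.50 and 2.14, and with OHT 2.17 and 2.24 against 3.0 and 2.66. Abcc3, an ATP-driven export pump, read -3.32 and -3.06 against -2.45 and -2.71, but its OHT arrays overlapped and normexp background correction turned its difference from 0.61 to -0.04. For Slc30a2 and Slco4a1 the labelled knockout arrays lay above the wild type arrays in both states, with untreated differences of 0.66 and 0.55.

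The remaining higher genes were of mixed function. Trim34a, a TRIM family antiviral gene, read -3.44 and -3.43 against -2.75 and -2.68, a difference of 0.72 (SE 0.16). Stk32a, a serine/threonine kinase gene, read -2.35 and -2.41 against -1.84 and -1.75, a difference of 0.59. A second, dimmer Stk32a probe read -3.01 and -3.26 against -2.34 and -3.02, which overlapped, and was apart with OHT. Tpsb2, a mast cell tryptase gene, read -3.66 and -3.70 against -2.73 and -3.04. With OHT the groups of these 3 genes were again apart and in the same direction, at -3.11 and -2.99 against -2.65 and -2.51 for Trim34a. Krt16, a keratin gene, had a difference of 0.74, and Vps51, a gene of Golgi trafficking, one of 0.62 with pools at 1.06, 1.65, 2.07 and 1.88, and with OHT both overlapped. 2210416O15Rik and 4930402H24Rik had differences of 0.58 and 0.63, and the first was apart with OHT too. Under normexp the difference fell to 0.13 for Trim34a, 0.13 for Stk32a, 0.03 for Tpsb2, 0.28 for Krt16, 0.06 for 2210416O15Rik and 0.04 for 4930402H24Rik. Ssc5d had the largest value among the 12, at -3.51 and -3.74 against -2.43 and -1.58, a difference of 1.62 (SE 0.41), which normexp turned to -0.04.

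The lower genes were of mixed function too. Gdf9, the oocyte growth factor gene, read -1.41 and -1.55 in wild type and -2.23 and -2.24 in labelled knockout, a difference of -0.75 (SE 0.19), and with OHT -1.58 and -1.91 against -2.26 and -2.44. Lrrc10, a gene of heart muscle, read -2.84 and -2.84 against -3.76 and -3.68, a difference of -0.88 (SE 0.18), and with OHT -3.46 and -3.33 against -4.16 and -3.85. Both genes kept all labelled knockout arrays below the wild type arrays in each state, as did Ppp1r32, whose untreated difference was -0.79. Cldn23, a tight junction claudin gene, read -2.82 and -2.97 against -3.73 and -4.06, a difference of -1.0 with the smallest p of the 12 (0.0023 before adjustment), and its OHT values overlapped. Gas2l2, a cytoskeletal linker gene, had a difference of -1.25 and 4930520O04Rik one of -1.21. Ggn, a germ cell gene, Wbscr25, Ppp1r3f and Crebrf had differences between -1.05 and -0.80. None of these 6 was separated in that direction with OHT, and all 6 lay at or below -2.65 on every untreated array. Under normexp the 12 lower genes had differences between -0.68 and -0.44, 9 of them under 2/3 of the size given here, such as -0.55 for Rarb, -0.58 for Cldn23 and -0.51 for Lrrc10.

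**Figure D4:**
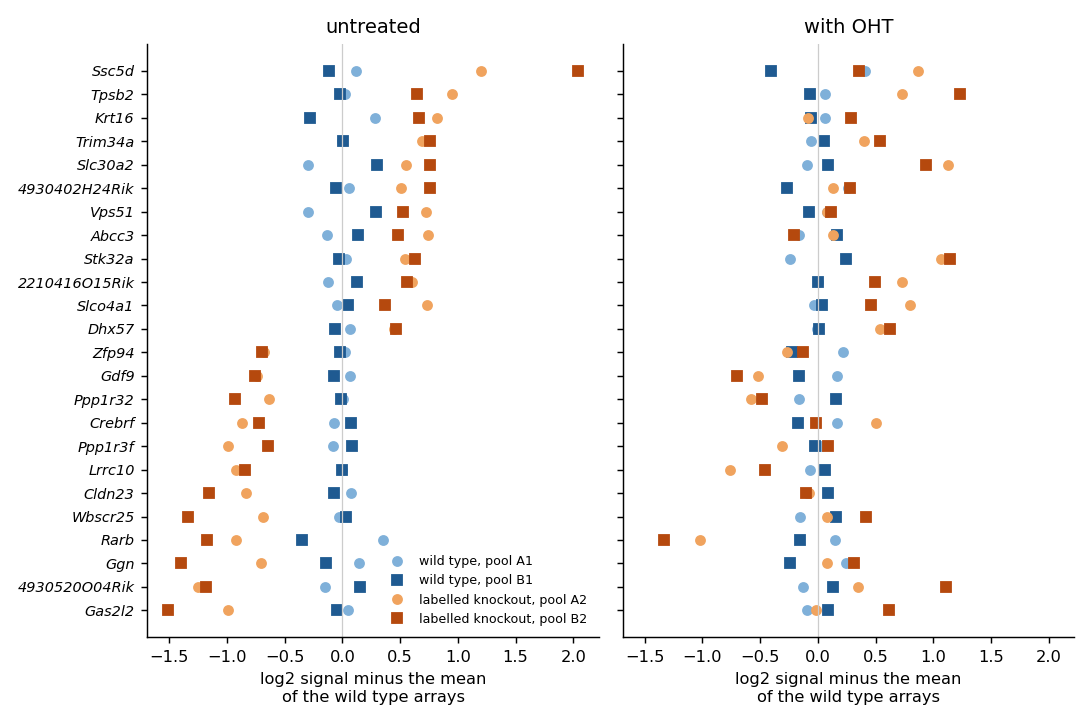
The 24 measured genes of smallest p, 12 higher and 12 lower: log2 signal of each array minus the mean of the wild type arrays in the same state, untreated (left) and with OHT (right). On the left both labelled knockout points lie on one side of both wild type points for every gene by choice, and on the right this holds for part of them, such as Dhx57, Slc30a2, Stk32a, Lrrc10 and Rarb.

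The larger differences lay for the most part at the edge of detection. Of the 51 genes with both labelled knockout arrays at least 1 log2 unit below both wild type arrays (0.336%), 49 were below background on both labelled knockout arrays, and the highest wild type mean among the 51 was -2.94. With OHT, 2 of the 51 were separated lower. On the higher side 5 genes passed the same distance (0.0329%), 1 of them above background on all 4 arrays. For such a gene the fold is a bound: the mean of the brighter group against the higher of the dimmest detected probe and the gene's own signal on each array of the dimmer group. Slfn1, a schlafen family gene, was at least 1.79-fold higher, with levels of -6.52, -6.18, -3.41 and -3.94. Fcmr, the receptor for IgM, was at least 2.73-fold higher, and Ifi207, an interferon-inducible gene, at least 3.50-fold by 1 of its 2 probes. The other Ifi207 probe read -6.29, -5.98, -3.44 and -6.56, above background on 1 of the 4 arrays and lowest in B2. Spata22, a gene of meiotic recombination, was at least 1.83-fold higher. These bounds hold for the scaling used here: the log2 differences of Slfn1, Fcmr, Ifi207 and Spata22, at 2.68, 2.76, 2.13 and 1.26, became 0.09, 0.20, 0.28 and -0.05 under normexp. On the lower side Cd7, a lymphocyte surface protein gene, was at least 2.67-fold lower, Gm2093 at least 3.27-fold and Gsdma2, a gasdermin gene, at least 3.17-fold. Their log2 differences of -1.42, -2.88 and -1.84 became -0.62, -0.82 and -0.67 under normexp. All 7 have a limma adjusted p of 1.

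RAS/ERK target genes are switched on by ERK activity. Of 34 on the array and tested, 25 had a difference above 0, against 46.1% of all genes, 0 had an unadjusted p under 0.05, and the list's median was 0.23 against -0.02 over all genes. The median was 0.36 for A2 minus the wild type mean and 0.00 for B2. Of the 34, 3 lay higher on both labelled knockout arrays and 3 lower, shares near those of all genes (9.19% and 11.5%). Dusp6, which encodes the phosphatase that inactivates ERK in the cytoplasm, read 4.89 and 4.97 in wild type and 5.32 and 5.25 in labelled knockout. Its difference was 0.35 (SE 0.17, limma adjusted p = 1), between 0.31 and 0.46 over every alternative setting and left-out array. The OHT arrays read 2.62 and 2.60 in wild type and 3.38 and 3.15 in labelled knockout, so the labelled knockout pools lay above the wild type pools in both states. The Dusp6 promoter (chr10:99262981-99263230, plus strand), shown because ERK targets are a class of genes that ETS factors control, has 6 GGAA cores, in capitals, and no CCGGAA.
Dusp6: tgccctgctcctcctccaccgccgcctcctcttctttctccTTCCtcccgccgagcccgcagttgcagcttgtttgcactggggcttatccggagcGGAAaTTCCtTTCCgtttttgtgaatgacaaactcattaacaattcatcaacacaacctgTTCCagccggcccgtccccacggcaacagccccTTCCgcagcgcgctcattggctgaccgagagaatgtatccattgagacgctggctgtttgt

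The feedback inhibitors Spry2, Spry4 and Spred2 did not share the Dusp6 pattern. Spry2, a Sprouty inhibitor of receptor tyrosine kinase signalling, read 1.14 and 1.28 against 1.03 and 1.13, a difference of -0.13 with the labelled knockout arrays lower. Spry4 read 0.39, -1.07, -0.99 and -0.15, with overlap and a sign that changed when pool A1 or A2 was left out. Spred2, an inhibitor of RAF activation, had a difference of 1.44, with pool B1 at -2.07 and the other pools at 0.64, 0.54 and 0.90, and with OHT B1 read 0.61. Etv5, an ETS activator downstream of FGF and ERK, read 6.91, 6.92, 6.37 and 7.11, and Etv4 read 4.67, 6.08, 4.45 and 6.11, high in the B pools of both genotypes. Etv1, of the same ETS group, read 3.60 and 3.52 against 3.20 and 3.32, and with OHT 2.06 and 1.83 against 1.70 and 1.64, so it lay lower in labelled knockout in both states. Immediate early genes were high in pool A2: Jun read 3.66 there and between 1.01 and 1.97 elsewhere, Egr1 1.79 against 0.87 to 1.26, and Vgf, a neuropeptide precursor gene, 3.66 against 0.36 to 1.76. In pool B2 Jun read 1.20, Egr1 0.93 and Vgf 0.44, inside the wild type range, and the 3 differences changed sign without pool A2.

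The cascade itself and the ETS family lay near 0. Of 26 measured genes from RAS to RSK, 16 had a difference above 0, 4 were higher on both labelled knockout arrays and 1 lower. Of all genes 9.19% were higher on both and 11.5% lower. The median of the 26 was 0.07, at -0.01 for A2 and 0.13 for B2. Of 21 ETS genes, 11 were above 0 and the median was 0.02, a sign that normexp, averaging of probes and the slide as a block turned. Fev, an ETS gene of serotonin neurons, was the one with an unadjusted p under 0.05 (0.0488), and it was above background on 1 of the 4 arrays. Of 16 FGF ligands and receptors 9 were above 0, and the median was 0.05 with a sign that several settings turned. Fgf15, an FGF ligand gene, read 0.70 and 0.09 against -0.36 and -0.41, a difference of -0.79, and with OHT -0.41 and -1.13 against -2.11 and -1.29. Its labelled knockout arrays were thus below the wild type arrays in both states.

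Naive pluripotency genes had the lowest median after those of the 2-cell-like state, with pool A2 far lower than pool B2. Of 23 measured, 1 was above 0, 4 were lower on both labelled knockout arrays and 1 higher, and the median was -0.45. Among all genes 11.5% were lower on both and 9.19% higher. For pool A2 minus the wild type mean the median was -1.05 with 12 genes at least 2-fold lower, and for pool B2 it was 0.12 with 3, where 4.78% and 4.03% of all genes lay that low in A2 and B2. Nanog, a homeobox factor of the naive state, read 5.65, 5.77, 4.26 and 5.87. Nr0b1, which encodes the nuclear receptor DAX1, read 3.86, 4.23, 1.96 and 4.14, and Tcl1, a coactivator of AKT, read 3.91, 4.32, 2.05 and 4.42. Prdm14, a repressor of FGF signalling in ES cells, read 0.26, 0.68, -1.97 and 0.32. Klf2 read 6.05, 5.35, 4.38 and 5.49. In each of these 5 genes A2 was lowest and B2 lay inside or just above the wild type range. The wild type pools differed too: the list's median was -0.30 for A1 minus B1, with 6 of 23 above 0. Within the letters it was -0.86 for A2 minus A1, with 1 above 0, and 0.08 for B2 minus B1, with 14. Pool A1 lay well below B1 in Esrrb, at 5.31, 6.58, 4.44 and 6.68, and in Klf4, at 2.33, 3.85, 2.05 and 4.06.

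The 4 naive genes lower on both labelled knockout arrays were Pramel6, Pramel7, Spic and Zfp57. Spic, an ETS gene, read -3.10 and -3.24 against -3.52 and -5.91, with 1 labelled knockout array above background. Zfp57, apart by 1 of its 2 probes, is described with the imprinted genes. Pramel6 and Pramel7 are paralogues of the PRAME family that favour the naive state of ES cells, and probes of such similar genes can share signal. Pramel6 read -1.63 and -2.44 in wild type and -2.84 and -3.44 in labelled knockout, a difference of -1.11 (SE 0.39, limma adjusted p = 1), or -0.73 under normexp. With OHT it read 0.43 and -0.02 against -1.76 and -1.23. Pramel7 read -1.65 and -2.20 against -2.45 and -3.04, a difference of -0.82, and with OHT -0.01 and -0.54 against -1.67 and -1.33. Both Pramel genes were thus apart in both states.

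Core pluripotency genes, shared by naive and primed cells, showed less. Of 18 measured, 5 were above 0 and the median was -0.08, with -0.20 for A2 and 0.03 for B2. Pou5f1, the OCT4 gene, read 5.68 and 5.34 in wild type, 3.88 in A2 and 5.50 in B2, and with OHT A2 was again lowest at 4.02. Sox2 read 3.42, 3.49, 2.91 and 3.57. Foxd3, a forkhead factor of ES cells, read 1.60 and 1.35 against 0.79 and 1.01, a difference of -0.58, and overlapped with OHT. Dppa5a read 6.54, 5.63, 6.67 and 6.52. Formative and primed genes numbered 24, of which 12 were above 0, 7 lower on both labelled knockout arrays and 1 higher, where 11.5% of all genes were lower and 9.19% higher. Their median was 0.00, and between -0.34 and 0.21 with 1 array left out. Otx2, a driver of the formative state, read 3.28 and 3.55 against 3.10 and 3.04, and Lefty1, a Nodal antagonist, 4.85 and 4.58 against 4.22 and 4.30.

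Primitive and visceral endoderm genes had medians below 0 in both labelled knockout pools. Of 21 measured, 5 were above 0, 6 were lower on both labelled knockout arrays and 0 higher, 2 had an unadjusted p under 0.05 and the median was -0.34. Of all genes 11.5% were lower on both and 9.19% higher. Without pool B1, the array on slide 2, the median was -0.04, and it was -0.13 with the slide as a block. Of the 21 genes 0 were higher in A1 than in B1, with a median of -0.75 between these 2 wild type pools. Within the letters the median was -0.09 for A2 minus A1, with 10 of 21 above 0, and -0.83 for B2 minus B1, with 0 above 0. Against the wild type mean it was -0.44 for A2 and -0.40 for B2, with 6 and 4 genes at least 2-fold lower, where 4.78% and 4.03% of all genes lay that low. Of the 4, 1 was Lrp2, whose B2 spot lay in a dim patch. Sox17, an endoderm transcription factor, read -2.35 and -1.54 against -2.73 and -3.21, a difference of -1.02 (SE 0.35, limma adjusted p = 1). Its OHT arrays read -2.25 and -1.86 against -2.57 and -2.92. Hnf4a, a nuclear receptor of visceral endoderm, read -2.56 and -2.34 against -4.59 and -3.55, with 1 labelled knockout array above background, and with OHT -2.76 and -2.58 against -4.72 and -3.30. Both factors lay below the wild type pools in both states, and under normexp their untreated differences were -0.63 and -0.79.

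For Gata4, Gata6 and Pdgfra the wild type pools lay further apart. Gata4 read -1.74 and -0.66 against -2.24 and -1.81, and Gata6, the factor that specifies primitive endoderm, -1.68 and -0.70 against -2.24 and -1.98. Pdgfra, a receptor on primitive endoderm cells, read -2.84 and -1.58 against -3.60 and -3.04. Their differences were -0.83, -0.92 and -1.11, and with the slide as a block they were -0.36, -0.39 and -0.48. Basement membrane genes of endoderm were mixed. Lama1 read 4.36, 5.21, 3.66 and 4.58, lowest in A2, while Sparc read 7.16, 7.23, 7.80 and 7.17, and Lamb1 4.85, 5.04, 5.39 and 4.82, highest in A2. The summed signal of 9 primitive endoderm markers was 4.63 and 5.51 in wild type and 4.21 and 4.78 in labelled knockout. In these bulk samples fewer cells of a type and less RNA per cell cannot be told apart.

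Trophoblast genes had a median of 0.67, again with the pools far apart. Of 21 measured, 18 were above 0, 4 were higher on both labelled knockout arrays and 1 lower, where 9.19% and 11.5% of all genes were so. The median was 0.20 without pool B1 and 0.20 with the slide as a block. It was 1.16 for A2, with 13 genes at least 2-fold higher, and -0.17 for B2, with 0. Of all genes 5.04% and 1.07% lay that high. Between the wild type pools the median was 0.46 for A1 minus B1, with 14 of 21 above 0. Within the letters it was 1.31 for A2 minus A1, with 18 above 0, and 0.15 for B2 minus B1, with 15. Krt18 and Krt8, the keratins of simple epithelia, read 8.09 and 5.62 in A2 against 3.80 to 5.79 and 1.11 to 3.52 in the other pools. Hand1, a factor of trophoblast giant cells, read 0.48 in A2 and between -2.09 and -1.55 elsewhere, and Cited1, a transcriptional coactivator gene, 2.92 against 0.36 to 0.94. Gata2 read -2.02 and -1.68 against -0.74 and -1.46. Rhox6, a placental homeobox gene, read 1.85 and 2.24 against 3.11 and 2.33. The summed signal of 8 trophoblast markers was 1.49 and 0.83 in wild type, 2.89 in A2 and 0.84 in B2, with 5 markers above background on all 4 arrays and 2 on none.

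Contractile genes and targets of serum response factor were likewise high in A2. All 18 measured had a difference above 0 and the median was 0.56. It was 1.20 for A2 with 11 genes at least 2-fold higher, but -0.09 for B2 with 0. Among all genes 5.04% and 1.07% lay that high in A2 and B2. Tagln, the actin-binding protein transgelin, read 5.60, 5.50, 7.55 and 5.41, and Acta1, skeletal muscle actin, 0.20, 0.20, 2.55 and -0.09. Tagln2 and Vcl, the vinculin gene, were the 2 of the 18 that lay higher in both labelled knockout pools, as did 9.19% of all genes. Tagln2 read 6.26 and 6.18 against 6.85 and 6.41, and Vcl 1.71 and 1.77 against 2.87 and 1.99. A second, dimmer Vcl probe read -1.63 and -1.36 against -0.87 and -1.80, with B2 lowest. Epithelial junction and keratin genes had 17 of 20 above 0 and a median of 0.35, at 0.57 for A2 and 0.09 for B2. Cldn4 and Cldn7, claudin genes of tight junctions, read 0.28 and 0.73 against 1.10 and 0.87 and 2.57 and 1.99 against 3.29 and 2.53, where the second overlapped.

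Targets of p53 also had most members above 0, at 18 of 21, with a median of 0.31 that was 0.67 for A2 and 0.01 for B2. Of the 21, 3 lay higher on both labelled knockout arrays and 2 lower, where 9.19% and 11.5% of all genes were so. Bax, which opens the outer mitochondrial membrane in apoptosis, lay higher in both pools and both states. It read 6.10 and 6.08 in wild type and 6.31 and 6.42 in labelled knockout, and with OHT 6.10 and 6.08 against 6.30 and 6.24, with an untreated difference of 0.28 (SE 0.16, limma adjusted p = 1). Phlda3, an inhibitor of AKT, read 4.79 and 4.82 against 5.85 and 5.00.

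**Figure D5:**
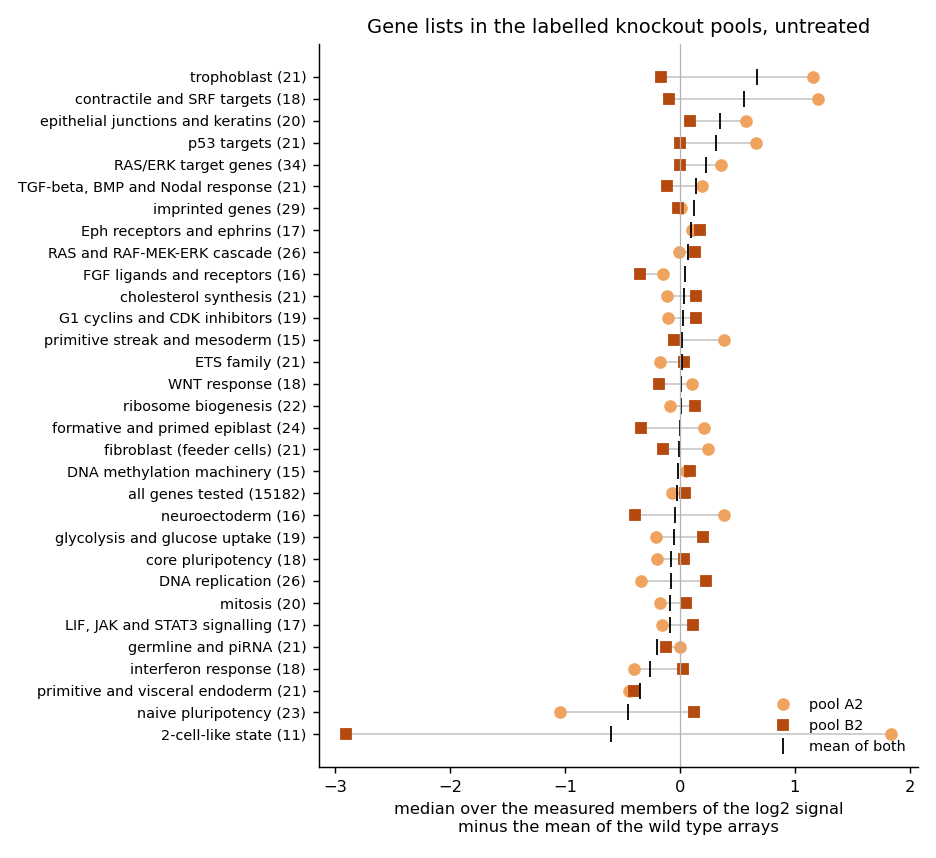
Median over the measured members of each gene list, for pool A2 (circles), pool B2 (squares) and their mean (bars), as log2 signal minus the mean of the wild type arrays. Trophoblast, contractile and naive pluripotency genes lie far from 0 in A2, at 1.16, 1.20 and -1.05, and near it in B2, while primitive and visceral endoderm lies at -0.44 and -0.40.

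Pool A2 was the labelled knockout pool that stood apart. By at least 1 log2 unit beyond the other 3 untreated arrays, A2 had 259 measured genes higher (1.93%) and 187 lower (1.4%), and B2 had 3 higher (0.0224%) and 40 lower (0.299%). Of the 259, 211 (81.5%) were again beyond the other 3 pools by that distance in the OHT arrays, and of the 187, 76 (40.6%). The wild type pools A1 and B1 had 22 (0.164%) and 16 (0.119%) higher and 8 (0.0597%) and 42 (0.314%) lower. Wnt4 and Wnt3, genes of WNT ligands, were high in A2, at 2.16 and 0.25 against values from -2.19 to -0.39 and from -3.65 to -1.91 in the other pools. Ccn1, a matricellular protein gene, read 2.23, 1.74, 4.62 and 1.98, and Cryab, a small heat shock protein gene, 1.92, 1.83, 4.06 and 1.35. All 4 were again highest in A2 with OHT.

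Among the genes low in A2 was Chac1, which encodes an enzyme that degrades glutathione, read 4.85, 5.20, 1.38 and 4.90, and with OHT 3.68, 3.90, 1.83 and 3.72. Trib3, a pseudokinase gene induced by stress, read 5.34, 5.65, 3.18 and 5.76. Gpt2, a mitochondrial alanine transaminase gene, read 3.12, 3.06, 0.84 and 3.12, and Nupr1, a stress-induced chromatin protein gene, 3.83, 4.17, 1.68 and 4.20. In these 4 genes the other 3 pools lay close together and A2 far below them.

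Among the 40 genes low in pool B2 were 6 of the 11 tested genes of the 2-cell-like state, a rare state of ES cells marked by Zscan4: Tcstv1, Tcstv3, Tmem92, Zscan4a, Zscan4c and Zscan4f. Zscan4c read 5.81 in A1, 2.19 in B1, 5.65 in A2 and 1.10 in B2, so both B pools were low and B2 lowest. Zscan4 genes are near-identical copies whose probes can share signal. Over the 11 genes of that list the median was 1.84 for A2 and -2.90 for B2 against the wild type mean, and between the 2 genotypes -0.60. The sign of that last value turned without pool A1 or without pool B2. Dkk1, a WNT antagonist gene, read -2.67, -2.02, -2.52 and -3.97, and Foxa2, an endoderm pioneer factor gene, -1.75, -1.74, -1.56 and -2.90. Aire, the autoimmune regulator gene, was higher in B2, at -3.94, -3.03, -4.05 and -1.99, and again with OHT, by 1 of its 2 probes, and the other gave between -3.91 and -3.88 on all 4 arrays.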

How the data were processed

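Each array took the Cy3-labelled RNA of 1 pool. The deposited scanner files hold a processed spot intensity, unscaled between arrays, from Feature Extraction 11.5.1.1 of Agilent per the file headers. The flags for spots above background, saturated or non-uniform come from the same files. The sources used here do not say how the authors normalised the arrays further, and the series' value table was not used.

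Control and flagged spots were left out, spots of a probe averaged, and the 75th percentile of each array was subtracted on the log2 scale. Of 55681 probes 28026 matched 21154 RefSeq genes (GRCm38.p6) and 27655 were unnamed. A probe was tested if well above background on both arrays of a group, and the brightest probe was kept where a gene had several, as 4888 genes had. The test of the 15182 genes used limma 3.58.1 under R 4.3.3 on 4 group means over 8 arrays, with 4 residual degrees of freedom and Benjamini-Hochberg adjustment, two-sided. The arrays of a pool were treated as independent. The p-values measure the spread between pools. Scripts were tested on simulated data, and tables and figures used pandas 2.3.3, numpy 2.4.6 and matplotlib 3.10.9 under Python 3.11.15.

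Genes were named by a rule: Erf and RAS genes, the 12 smallest p each way among non-overlapping genes, up to 4 passing or else 2 leading members of each of 31 lists, and the most distant genes of the groups and of pools A2 and B2. The measured genes of smallest p, the genes at least 2-fold in both pairs, the pool genes shown and further list members were added after the values were seen. Comparison, lists and rule were chosen with earlier results of these data known. Some genes the rule names are not reported here. The dim patches are stretches of 11 by 11 spots where over 20% of bright spots were down by at least 1 log2 unit, a definition chosen after seeing the data.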

Additional observations from a re-analysis of the deposited data

Results flagged for a closer look

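Among the genes described here, 4 had every labelled knockout array on one side of the wild type arrays when untreated and on the other with OHT. Over all measured genes, 34 went from higher to lower in this way and 131 from lower to higher. For 4930520O04Rik the untreated difference was -1.21 and the OHT difference 0.73, for Gata2 they were 0.744 and -1.12, for Piwil2, a piRNA pathway gene, -0.499 and 0.93, and for Spry2 -0.133 and 0.77. Piwil2 read -0.07 and -0.15 in wild type and -0.81 and -0.41 in labelled knockout, and with OHT -1.28 and -1.48 against -0.68 and -0.22. In limma's test of the difference between the states the 4 values were -1.94, 1.86, -1.43 and -0.90, with unadjusted p of 0.00382, 0.0303, 0.00672 and 0.0108 and an adjusted p of 1 for each. Over all genes that test called 0, with 196 at an unadjusted p under 0.05 and a smallest adjusted p of 0.924.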

How the results depend on the processing

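The 21 alternatives covered background correction, scaling, the filter on dim probes, the choice of probe, slide, pool, dim patches, the variance model and each array left out. The wider definition of dim patches was chosen after seeing the data. The count of genes called stayed at 0 except where 1 array was left out: 21 were higher without replicate 2 of the wild type, 6 lower without replicate 1 of the labelled knockout and 2 lower without its replicate 2. With the replicate number as a block 0 were called, and 554 had an unadjusted p under 0.05 against 206 without it. With the pool as a random block, at an estimated correlation of 0.803, 0 were called and 78 had such a p. Replicates of the same number deviated together across genotypes (correlation 0.474 untreated), but the labels give them no shared source. Of 84 genes named with a difference, 70 kept their direction in every alternative. Leaving out 1 array turned the sign of 11 genes, and another setting that of 4. Many of the 84 were chosen because their groups did not overlap. For such a gene leaving out 1 array cannot turn the sign, so the count of 70 is partly fixed by that choice. Normexp brought 36 of the 84 to under 2/3 of their size or past 0 and turned Abcc3 to -0.0374, Spata22 to -0.0490 and Ssc5d to -0.0427. Etv4 was 0.66 with the slide as a block and 0.61 on slide 1 alone. With 1 array left out, the lowest and highest differences were -1.82 and 0.37 for Erf, -0.93 and 0.74 for Etv4, -0.54 and 0.20 for Etv5, -0.13 and 0.73 for Egr1, -0.29 and 2.17 for Jun, -0.62 and 2.60 for Vgf, -0.96 and 0.50 for Spry4, -1.44 and 0.16 for Nanog, -2.09 and 0.0918 for Nr0b1, -2.06 and 0.31 for Tcl1 and -0.55 and 0.11 for Sox2. With 2 arrays a group, the spread between pools limits what could be detected, and dim genes lie close to background.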

Other observations

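Genes of DNA replication set the labelled knockout pools apart from each other. Of 26 measured, 8 had a difference above 0 and the median was -0.08, but it was -0.34 for A2 against the wild type mean and 0.23 for B2, and 0 of the 26 were higher in A2 than in B2. Normexp and the slide block turned the sign of the median between genotypes. Ribosome biogenesis genes were higher in A2 than in B2 in 2 of 22 and mitosis genes in 3 of 20, with medians between genotypes of 0.01 and -0.08. Between the wild type pools, 9 of 26 replication, 9 of 22 ribosome biogenesis and 4 of 20 mitosis genes were higher in A1 than in B1. The medians of A1 minus B1 were -0.23, -0.07 and -0.19, against -0.55, -0.21 and -0.17 for A2 minus B2. The mitosis genes thus differed as much between the wild type pools. Of all 15182 genes, 6693 were higher in A1 than in B1 and 6468 in A2 than in B2. G1 cyclins and CDK inhibitors had 11 of 19 above 0 and a median of 0.03, glycolysis genes 8 of 19 and -0.05, and cholesterol synthesis genes 12 of 21 and 0.03.

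Genes of DNA methylation included Dnmt3l, the cofactor of the de novo methyltransferases, at 7.36 and 7.41 in wild type and 7.67 and 7.60 in labelled knockout, and with OHT at 6.72 and 6.70 against 7.42 and 7.20. The difference was 0.25 (SE 0.17, limma adjusted p = 1), and the list had 7 of 15 above 0 and a median of -0.01. Zfp57, which protects methylation at imprinted loci, read 1.87 and 2.13 against 1.34 and 1.77, and overlapped with OHT. A second, dimmer Zfp57 probe read -0.72 and -1.36 against -1.39 and -0.78, which overlapped, with a difference of -0.05. Imprinted genes had 16 of 29 above 0 and a median of 0.12, with Nnat, a neuronal proteolipid gene, at 0.99 and 0.33 against 2.21 and 1.06. Cdkn1c, the imprinted CDK inhibitor p57, read 6.10, 4.70, 4.45 and 4.86, with pool A1 above the other 3.

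Interferon response genes had 3 of 18 above 0 and a median of -0.26, at -0.40 for A2 and 0.02 for B2. Oas1a, an antiviral enzyme gene, read 0.56 and 0.68 against 0.36 and 0.24, and with OHT 1.74 and 1.54 against 0.81 and 0.66. Germline and piRNA genes had 6 of 21 above 0 and a median of -0.20, with Stk31 at -0.75 and -0.70 against -1.05 and -1.0. Eph receptors and ephrins had 13 of 17 above 0 and a median of 0.10. LIF, JAK and STAT3 signalling had 4 of 17 above 0 and a median of -0.09, TGF-beta, BMP and Nodal response 14 of 21 and 0.14, and WNT response 9 of 18 and 0.01. Markers of mesoderm, neuroectoderm and fibroblasts had medians of 0.02, -0.04 and 0.00 between genotypes. Pools A2 and B2 lay on opposite sides of 0 in each of these 3 lists. Of the lists in these paragraphs, each but that of Eph receptors and ephrins had a median whose sign turned in at least 1 alternative or with 1 array left out.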
